A study of Homo sapiens with 2 samples.

Results

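The HOX genes of HSC-1, a cell line from human cutaneous squamous cell carcinoma (cSCC), were analysed with and without knockdown of the long noncoding RNA LINP1. The members were the protein-coding rows of the gene table whose symbol is HOXA, HOXB, HOXC or HOXD followed by a number. The rule found 39 genes among 44591 rows, of which 19233 are protein-coding, with 11 in HOXA, 10 in HOXB, 9 in HOXC and 9 in HOXD. The rule used only the symbol and the gene type, and not the levels or differences below. It was chosen with earlier results of these data known.

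HSC-1 cells were transfected at about 70% confluency, per the labels, with either the control siRNA siNC or with siLINP1, which targets LINP1. They were kept without serum for 6 h and then for 24 h in medium with serum, and total RNA was sequenced. Each condition was 1 library from 1 cell line, so the spread between cultures is unknown, no test was possible and no p-value is given. Both libraries carry the transfection, and no untransfected library was analysed here.

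HOX genes encode homeodomain transcription factors that lie in 4 clusters, and genes of the same number in different clusters are paralogs descended from a common ancestor. Along each cluster, genes of low number are used towards the head and genes of high number towards the tail and the ends of the limbs, and this order of genes matches the order of the body. Adult skin cells keep part of this pattern as a record of where in the body they came from, and retinoic acid, the Polycomb and Trithorax chromatin regulators and noncoding RNAs of the clusters are known to act on it.

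The siNC library held 18829544 reads on 26757 genes and the siLINP1 library 15383081 reads on 26898 genes. The HOX genes took 9452 and 8608 of these reads, or 0.0502% and 0.0560%. At the median HOX length of 2018 bases, 1 read was worth 0.0263 RPKM (reads scaled to gene length and to the library total) in siNC and 0.0322 RPKM in siLINP1. LINP1 itself (chr10:6779344-6780901 of hg19, plus strand) had 167 reads with siNC against 23 with siLINP1, or 10.7 against 1.80 RPKM. Its log2 fold change in siLINP1 against siNC was -2.65, with a 95% interval of -3.35 to -2.02. All intervals here cover counting error only, since each condition was 1 library and the spread between cultures does not enter them. Reads amplified by PCR are not independent molecules, so the intervals may be too narrow even for counting error. In such bulk RNA, fewer cells that use a gene and less RNA per cell cannot be told apart. Of 15 keratinocyte markers, 8 did not reach 1 RPKM in either library. These included TP63 with 6 and 8 reads, CDH1 with 14 and 3 and KRT5 with 32 and 24. The others were read, led by ITGB4 at 51.4 and 41.6 RPKM and PERP at 14.3 and 21.1 RPKM, with SFN at 10.7 and 6.82, KRT14 at 7.89 and 3.46, DSP at 3.79 and 3.40 and KRT17 at 1.99 and 2.23 RPKM, and KRT6A at 0.672 and 1.19 RPKM passed 1 RPKM in siLINP1. A list of 8 mesenchymal genes had medians of 7.42 and 6.95 RPKM. It ranged from COL1A2 at 0.0393 and 0.0961 RPKM to VIM at 1519 and 1278 RPKM, with SPARC next at 505 and 382 RPKM. The part of this list in the HOX levels was not tested.

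HOX genes of every cluster and of the whole range of paralog groups were read in both libraries. At least 1 RPKM was found in both libraries for 30 of the 39 members, while 59.5% of all protein-coding genes passed the same level. These were 7 of 11 in HOXA, 9 of 10 in HOXB, 9 of 9 in HOXC and 5 of 9 in HOXD. By position, they were 5 of 8 genes in paralog groups 1 to 3, 14 of 15 in groups 4 to 8 and 11 of 16 in groups 9 to 13. Neither the head end nor the tail end of the series was silent as a whole. The 39 levels summed to 240.5 RPKM in siNC and 268.1 RPKM in siLINP1. HOXB held 45.0% and 45.7% of this sum, HOXC 34.3% and 33.1%, HOXA 12.3% and 11.6%, and HOXD 8.36% and 9.57%. The HOXB and HOXC genes together thus made up most of the HOX level in each library.

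**Figure D1:**
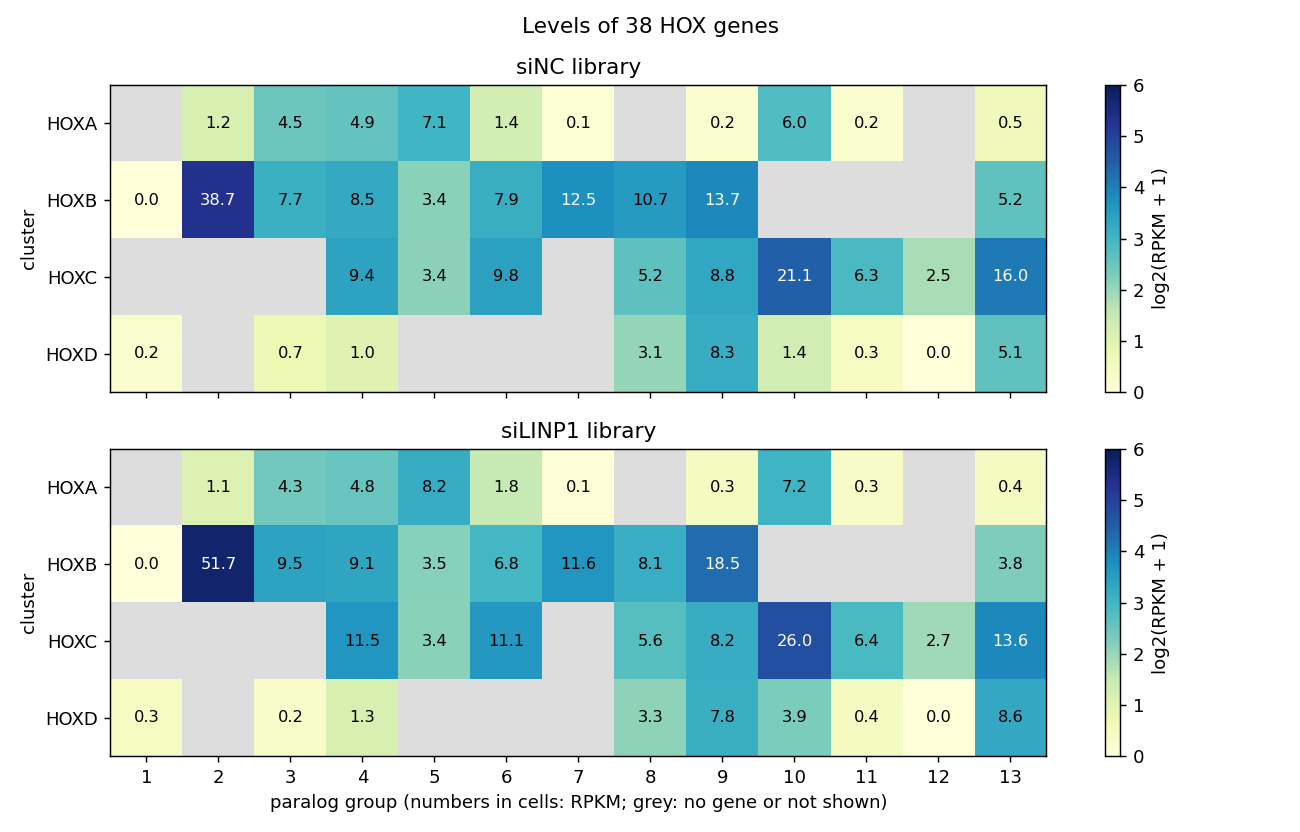
Level of 38 HOX genes in RPKM by cluster (rows) and paralog group (columns) in the siNC library (top) and the siLINP1 library (bottom), 1 library each, with colour showing log2(RPKM + 1) and grey where no gene exists or none is shown. HOXB2 is the darkest cell in both, at 38.7 and 51.7 RPKM, and HOXB1 and HOXD12 are at 0 in both.

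The order of levels had few steps that counting error could resolve. In siNC, HOXB2 was above HOXC10, HOXC10 above HOXC13 and HOXC13 above HOXB9 with intervals that did not overlap, and the other 35 of 38 pairs of neighbours in the order overlapped. In siLINP1 there were 4 such steps, from HOXB2 to HOXC10 to HOXB9 to HOXC13, and from HOXA2 to HOXA13. HOXB9 and HOXC13 therefore changed places between the libraries. Across the 37 members with any read, Spearman's rho between the levels of the libraries was 0.964, which describes 37 genes of the same 2 libraries and is not a measure over replicates.

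HOXB lies at chr17:46606807-46806111 of hg19 on the minus strand, over 199.3 kb. HOXB2, which patterns the hindbrain in the embryo, was covered by 1168 reads with siNC and 1275 with siLINP1, at 38.7 RPKM (95% interval 36.5 to 41.0) and 51.7 RPKM (48.9 to 54.6). It was the highest HOX gene in both libraries and stood at rank 1778 among protein-coding genes in siNC. HOXB9, a trunk gene, had 698 and 769 reads, at 13.7 and 18.5 RPKM. HOXB7 had 321 and 244 reads, at 12.5 and 11.6 RPKM. HOXB8 had 368 and 227 reads, at 10.7 and 8.09 RPKM. These 4 genes were the upper part of the cluster in siNC, and they come from its head end and its trunk part.

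The middle HOXB genes lay close together. HOXB4, known for its action on blood stem cells, had 326 and 285 reads, at 8.52 and 9.11 RPKM. HOXB6 had 250 and 176 reads, at 7.92 and 6.83 RPKM. HOXB3 had 577 and 584 reads, at 7.65 and 9.48 RPKM. The span of HOXB3 contains that of HOXB4 on the same strand, so reads of this pair may be divided in a way that the counting rule decides. HOXB13, which lies apart from the rest of the cluster and is best known from the prostate, had 295 and 178 reads, at 5.16 and 3.81 RPKM. HOXB5 was the lowest HOXB gene above 1 RPKM, with 118 and 98 reads at 3.44 and 3.50 RPKM. HOXB1, the gene of the head end that is tied to retinoic acid and the hindbrain, had 0 reads in both, which at 3 reads allows up to 0.157 and 0.192 RPKM.

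HOXC lies at chr12:54332576-54449814 on the plus strand, over 117.2 kb, and was the cluster in which every gene passed 1 RPKM in both libraries. HOXC10, a gene of the lumbar and hindlimb level, had 777 and 784 reads, at 21.1 RPKM (19.6 to 22.6) and 26.0 RPKM (24.2 to 27.9). HOXC13, which controls keratin genes of hair and nail, had 723 and 503 reads, at 16.03 RPKM (14.9 to 17.2) and 13.6 RPKM (12.5 to 14.9). Both belong to the tail end of the cluster and led it in each library. HOXC6 had 413 and 383 reads, at 9.77 and 11.1 RPKM. HOXC4 had 417 and 415 reads, at 9.44 and 11.5 RPKM. HOXC5 had 138 and 115 reads, at 3.37 and 3.44 RPKM. The rows of HOXC4, HOXC5 and HOXC6 start at the same base, 54410636, and overlap on the same strand, so their counts are uncertain against each other.

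The other HOXC genes cover the trunk and tail levels. HOXC9, of the thoracic level, had 252 and 191 reads, at 8.83 and 8.19 RPKM. HOXC11 had 241 and 202 reads, at 6.28 and 6.45 RPKM. HOXC8 had 224 and 197 reads, at 5.19 and 5.59 RPKM. HOXC12 was the lowest of the cluster, with 45 and 40 reads at 2.51 and 2.73 RPKM.

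HOXA lies on the minus strand of chromosome 7 and was read mainly in its part up to HOXA6 and at HOXA10. HOXA5, needed for the lung in the embryo, had 221 and 208 reads, at 7.08 and 8.16 RPKM. HOXA10, known from the uterus, had 358 and 351 reads, at 5.97 and 7.16 RPKM. HOXA4 had 161 and 127 reads, at 4.95 and 4.78 RPKM. HOXA10 stood alone among its neighbours, as HOXA9 had 7 and 11 reads, HOXA11 had 9 and 11 and HOXA7 had 3 and 2. HOXA3 had 297 and 228 reads, at 4.54 and 4.26 RPKM. HOXA6 had 21 and 22 reads, at 1.39 and 1.78 RPKM. HOXA2 was close to the 1 RPKM level, with 41 and 30 reads at 1.22 and 1.10 RPKM. HOXA13, the tail end gene, had 24 and 14 reads and was under that level at 0.507 and 0.362 RPKM. A combined row named HOXA10-HOXA9 overlaps both HOXA9 and HOXA10 on the same strand, so their counts depend on how shared reads were assigned.

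HOXD lies at chr2:176957532-177055635 on the plus strand, over 98.1 kb, and was read in separate places. HOXD9 had 293 and 225 reads, at 8.25 and 7.76 RPKM. HOXD13, which shapes the digits, had 224 and 307 reads, at 5.11 RPKM (4.46 to 5.83) and 8.58 RPKM (7.64 to 9.59). HOXD8 had 153 and 132 reads, at 3.09 and 3.26 RPKM. HOXD10, a gene of the limb and lumbar level, had 49 and 108 reads, at 1.44 RPKM (1.07 to 1.91) and 3.89 RPKM (3.19 to 4.70). HOXD9, HOXD10 and HOXD13 were thus read on both sides of HOXD11, with 9 and 8 reads, and of HOXD12, with 0 reads in both, which at 3 reads allows up to 0.196 and 0.240 RPKM. HOXD4 was at the 1 RPKM level, with 25 and 25 reads at 1.02 and 1.25 RPKM. HOXD3 had 29 and 8 reads, at 0.670 and 0.226 RPKM, and HOXD1 had 7 and 10 reads.

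**Figure D2:**
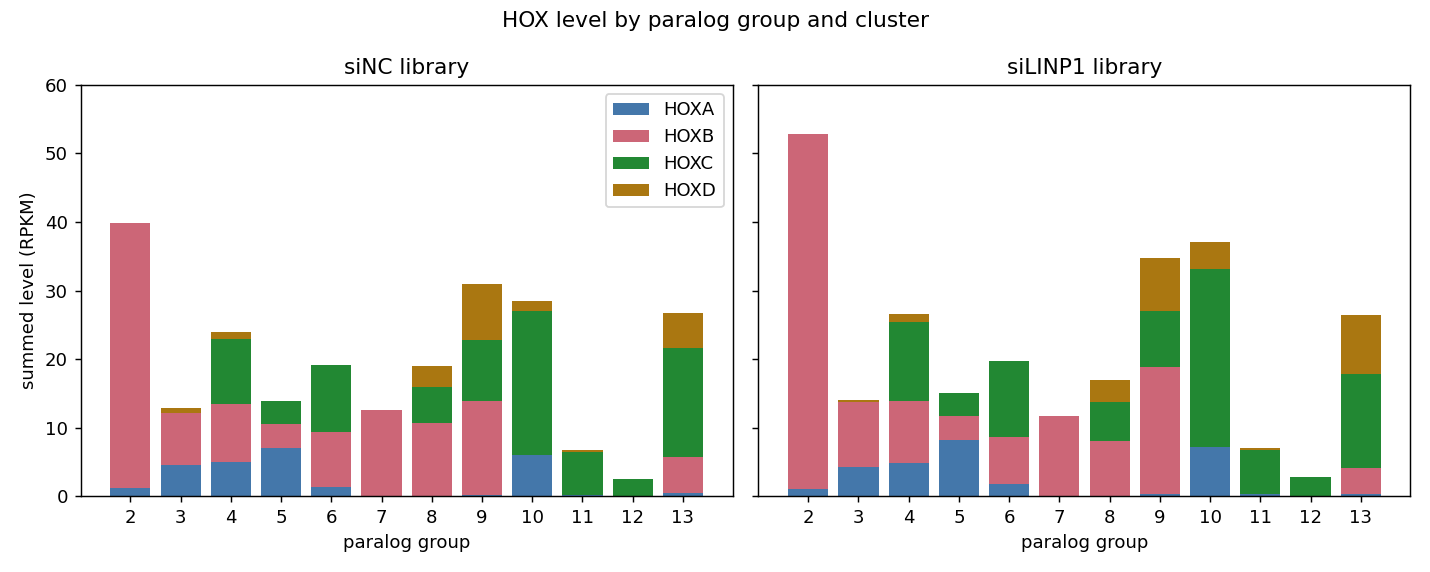
Summed level of the HOX genes in RPKM (bars from 0) by paralog group, for groups 2 to 13, in the siNC library (left) and the siLINP1 library (right), 1 library each, with colours for the clusters. Paralog group 2, nearly all of it HOXB2, is the highest bar in both at 39.9 and 52.8 RPKM, and group 12 is the lowest at 2.51 and 2.73 RPKM.

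Summed over paralog groups, the level had several peaks. Groups 1 to 3 summed to 56.5 RPKM in siNC and 70.0 RPKM in siLINP1, groups 4 to 8 to 88.5 and 90.1 RPKM, and groups 9 to 13 to 95.6 and 108.1 RPKM. After group 2, the highest groups in siNC were group 9 at 31.0 RPKM, group 10 at 28.5 RPKM and group 13 at 26.8 RPKM, with 34.8, 37.1 and 26.4 RPKM in siLINP1. The genes that filled them came from different clusters, as HOXB9 led group 9, HOXC10 led group 10 and HOXC13 led group 13 in both libraries.

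Comparing siLINP1 with siNC, most HOX genes kept within 1.5-fold. Of the 36 members that reached 10 reads over both libraries together, 4 were more than 1.5-fold higher (HOXD10, HOXD13, HOXA9 and HOXD1), beside 14.4% of all genes tested, and 1 was more than 1.5-fold lower (HOXD3), beside 13%. All 5 except HOXA9 lie in HOXD. Past 2-fold there was 1 higher, HOXD10, beside 6.74% of all genes, and 1 lower, HOXD3, beside 5.33%. The whole interval lay beyond 1.5-fold for 1 member on the higher side, HOXD10, beside 3.98% of all genes, and for 0 on the lower side, beside 2.06%. The median log2 fold change of the 36 members was 0.02, with 19 higher and 17 lower, beside a median of -0.02 over all 19840 genes tested. Scaled by total counts, the split of the members was 23 higher and 13 lower, while the share of all genes on the higher side also moved, from 47.8% to 55.5%.

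**Figure D3:**
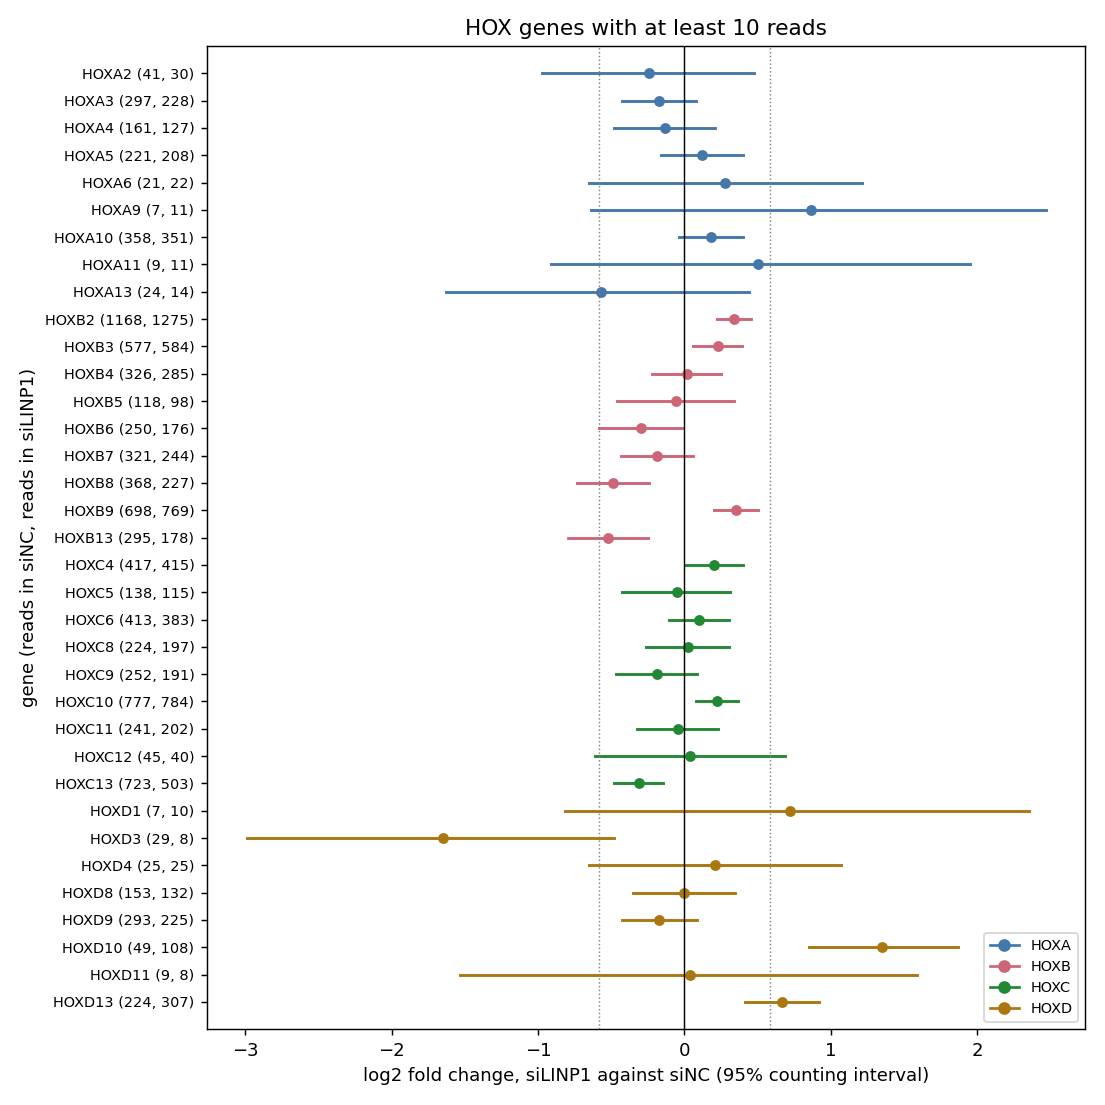
Log2 fold change of siLINP1 against siNC (x axis) with its 95% counting interval for 35 HOX genes with at least 10 reads (y axis, with reads in siNC and in siLINP1), coloured by cluster, with dotted lines at 1.5-fold. The interval of HOXD10 (0.85 to 1.87) lies wholly past the upper dotted line, and the widest intervals belong to genes with few reads, such as HOXA9 with 7 and 11.

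Of the 5 genes past 1.5-fold, HOXD10 and HOXD13 had at least 100 reads. HOXD10 went from 49 to 108 reads, with a log2 fold change of 1.35 and an interval of 0.85 to 1.87. HOXD13 went from 224 to 307 reads, with a log2 fold change of 0.66 (0.41 to 0.92). Neither row overlaps another row of the table. HOXD3 went from 29 to 8 reads, with a log2 fold change of -1.65 (-2.99 to -0.48), and overlaps an unnamed row on the opposite strand. For HOXA9, with 7 and 11 reads, the value was 0.86 (-0.64 to 2.47), and for HOXD1, with 7 and 10 reads, it was 0.72 (-0.82 to 2.35). The intervals of HOXA9 and HOXD1 include no difference, so a difference in either was not detectable at this depth. Among the 26 members with at least 100 reads, 2 were higher past 1.5-fold, beside 8.72% of all genes at that depth, and 0 lower, beside 6.77%.

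The promoters of HOXD10 and HOXD13 and of the genes between them are shown because these neighbours were read so differently, HOXD10 and HOXD13 being past 1.5-fold and HOXD11 and HOXD12 hardly read. Each is the plus strand in the RefSeq table on GRCh38.p14, a later build than the hg19 of the counts, from 250 bases before to 50 bases after the start. The windows are chr2:176092471-176092770 for HOXD13, chr2:176099545-176099844 for HOXD12, chr2:176107030-176107329 for HOXD11 and chr2:176116528-176116827 for HOXD10. Capitals mark each CG dinucleotide, a site where DNA can be methylated. Methylation was not measured here.
HOXD13: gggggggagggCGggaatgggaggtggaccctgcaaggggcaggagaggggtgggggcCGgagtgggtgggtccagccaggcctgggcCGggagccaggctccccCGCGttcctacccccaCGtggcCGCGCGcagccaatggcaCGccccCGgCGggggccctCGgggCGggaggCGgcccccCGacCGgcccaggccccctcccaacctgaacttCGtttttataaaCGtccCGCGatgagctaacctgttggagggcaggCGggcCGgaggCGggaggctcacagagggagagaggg
HOXD12: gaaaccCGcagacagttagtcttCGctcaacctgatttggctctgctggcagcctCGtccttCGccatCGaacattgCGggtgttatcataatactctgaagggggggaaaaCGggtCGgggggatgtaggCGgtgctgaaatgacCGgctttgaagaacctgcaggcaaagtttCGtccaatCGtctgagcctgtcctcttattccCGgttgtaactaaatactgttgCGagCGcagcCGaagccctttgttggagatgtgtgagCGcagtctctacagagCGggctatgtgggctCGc
HOXD11: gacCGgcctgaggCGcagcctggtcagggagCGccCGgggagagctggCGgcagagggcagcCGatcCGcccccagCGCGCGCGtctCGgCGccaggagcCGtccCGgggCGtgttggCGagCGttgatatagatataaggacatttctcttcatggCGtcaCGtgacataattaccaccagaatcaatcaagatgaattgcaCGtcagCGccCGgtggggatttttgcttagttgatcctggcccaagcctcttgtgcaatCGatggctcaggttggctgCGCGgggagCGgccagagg
HOXD10: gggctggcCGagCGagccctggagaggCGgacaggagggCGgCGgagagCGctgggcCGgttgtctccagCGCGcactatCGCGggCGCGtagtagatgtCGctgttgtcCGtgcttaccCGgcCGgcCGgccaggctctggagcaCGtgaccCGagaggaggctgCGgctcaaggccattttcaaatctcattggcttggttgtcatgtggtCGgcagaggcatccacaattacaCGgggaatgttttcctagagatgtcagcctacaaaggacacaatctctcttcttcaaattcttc

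These windows held 24 CG dinucleotides in HOXD13, 19 in HOXD12, 27 in HOXD11 and 23 in HOXD10, and their GC contents were 74.0%, 54.3%, 62.3% and 60%. The hardly read HOXD11 and HOXD12 thus lay above and below the more strongly read pair in CG count. The table held 27 promoters of 20 of the 39 members, in 26 distinct windows, since HOXC4 and HOXC5 have the same one. Their median was 22 CG dinucleotides in 300 bases, from 0 to 44, beside 14 over all 35116 promoters. It was 18 over the 18 promoters of members read at 1 RPKM in both libraries, or 21 with the shared window counted once, and 25 over the 9 promoters of the others, and promoters of the same gene, such as the several of HOXA3, share that gene's level. The letters TGATTNAT, which resemble the joint site of HOX and PBX proteins, were searched on both strands and occurred in 2 of the 27 promoters, those of HOXA2 and HOXD11, or 7.41%, beside 2.82% of all. The letters TATAAA, searched on both strands, occurred in 5 of the 27, among them HOXD13, or 18.5%, beside 11.5% of all. The motifs can share a few letters where they meet, and a match is only a description of the window.

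Smaller differences passed counting error in both directions. The interval lay above 0 for 7 members, beside 23% of all genes, and below 0 for 6, beside 25.6%. Scaled by total counts there were 8 above and 4 below, beside 28.4% and 19.7% of all genes. With TMM factors there were 7 above and 4 below, beside 24.5% and 23.8%, and with size factors from protein-coding genes 7 and 4, beside 24.9% and 23.3%. On the higher side, beside HOXD10 and HOXD13, HOXB2 had a log2 fold change of 0.34 (0.22 to 0.45), HOXB9 0.35 (0.20 to 0.50), HOXB3 0.23 (0.06 to 0.40) and HOXC10 0.22 (0.08 to 0.37). HOXC4 was on the edge, at 0.20 with an interval from 0.003 to 0.40. On the lower side, beside HOXD3, HOXB13 was at -0.52 (-0.80 to -0.25), HOXB8 at -0.49 (-0.73 to -0.25) and HOXC13 at -0.31 (-0.48 to -0.15). HOXB6 was close to the edge, at -0.30 (-0.58 to -0.01), and its interval included 0 under each of the 3 other scalings. Genes of the same cluster thus stood on opposite sides in HOXB, HOXC and HOXD, and the paralogs HOXD13, HOXC13 and HOXB13 also stood on opposite sides.

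Another 21 members had intervals that include 0 and values within 1.5-fold. Among those with the most reads, HOXA10 was at 0.18 (-0.04 to 0.40; 0.05 to 0.48 under total count scaling), HOXC6 at 0.10 (-0.10 to 0.30), HOXB4 at 0.02 (-0.22 to 0.25) and HOXB7 at -0.19 (-0.43 to 0.06). These 4 intervals lie wholly within 1.5-fold. The low members were less certain, as HOXA13 with 24 and 14 reads was at -0.57 (-1.63 to 0.44) and HOXA6 with 21 and 22 reads at 0.28 (-0.65 to 1.21). Under total count scaling, the sign turned to the higher side for HOXB5, HOXC5, HOXC11 and HOXD8, and for HOXD8 also under both other scalings. All 4 had been within 0.06 of no difference before the change of scaling. HOXA7 had 3 and 2 reads, and with HOXB1 and HOXD12 it made up the 3 members under 10 reads.

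The summed differences of the clusters were small and depended on single genes and on the scaling. Over all members, the log2 fold change was 0.07 (0.03 to 0.12), and without HOXB2 it was 0.03 (-0.01 to 0.08). HOXB was at 0.11 (0.04 to 0.17), from 4121 and 3836 reads, and at 0.00 (-0.07 to 0.08) without HOXB2. HOXD was at 0.27 (0.13 to 0.41), from 789 and 823 reads, and at 0.08 (-0.10 to 0.25) without HOXD13. HOXA was at -0.02 (-0.14 to 0.10) and HOXC at 0.02 (-0.05 to 0.09), the latter at 0.10 (0.03 to 0.17) under total count scaling. By position, groups 1 to 3 were at 0.18 (0.10 to 0.27), and at 0.01 (-0.12 to 0.13) without HOXB2. Groups 4 to 8 were at -0.04 (-0.12 to 0.03) and groups 9 to 13 at 0.10 (0.03 to 0.16). Without HOXC10, groups 9 to 13 were at 0.06 (-0.01 to 0.14), and without HOXC4, groups 4 to 8 were at -0.08 (-0.16 to -0.0006). Leaving out the gene with most reads thus brought the interval to include 0 for all members, HOXB, HOXD, groups 1 to 3 and groups 9 to 13, and took it past 0 for groups 4 to 8. For HOXD and groups 1 to 3 this held under all 3 other scalings. With TMM factors, all members without HOXB2 were at 0.06 (0.01 to 0.10) and groups 9 to 13 without HOXC10 at 0.09 (0.01 to 0.16), both above 0 there as under the remaining scalings. HOXB without HOXB2 was above 0 under total count scaling, at 0.09 (0.009 to 0.16), and groups 4 to 8 without HOXC4 included 0 under each other scaling. The HOXA sum turned to 0.06, 0.003 and 0.01 under the 3 other scalings, with intervals that include 0.

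Among the noncoding RNAs of the clusters, HOXC13-AS was higher and HOXD-AS2 lower in siLINP1, while HOTAIR and HOTAIRM1 were near no difference. Of 28 listed names, 22 matched a row, and 3 of the 6 others are older names of listed rows. There were 15 with at least 10 reads, of which 1 was higher and 3 were lower past 1.5-fold, beside 14.4% and 13% of all genes tested, and their median was -0.00. These counts are close to that background. HOXC13-AS, antisense to HOXC13, had 34 and 95 reads, at 1.28 and 4.39 RPKM, with a log2 fold change of 1.69 (1.11 to 2.30). Its partner HOXC13, whose row overlaps it on the opposite strand, stood on the lower side, at -0.31. Reads shared by this pair may have been assigned to either row. HOXD-AS2 had 120 and 51 reads, at 9.21 and 4.79 RPKM, with a log2 fold change of -1.03 (-1.53 to -0.54). The others on the lower side had fewer reads, HAGLROS with 58 and 24 at -1.06 (-1.81 to -0.35) and HOXC-AS3 with 12 and 5 at -1.05 (-2.91 to 0.55).

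**Figure D4:**
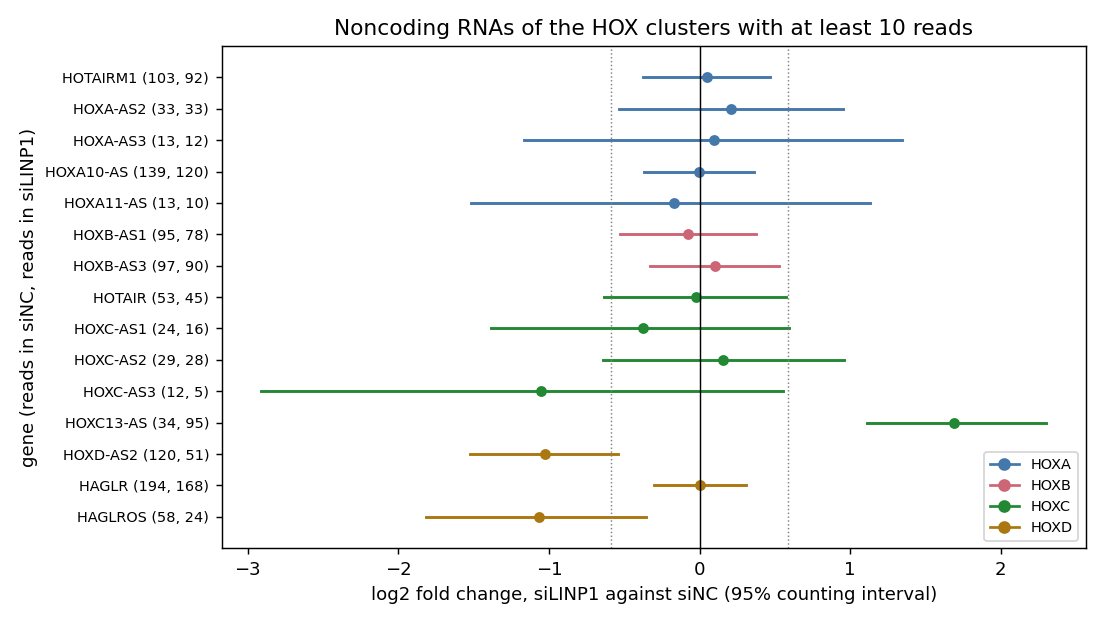
Log2 fold change of siLINP1 against siNC (x axis) with its 95% counting interval for the 15 noncoding RNAs of the HOX clusters with at least 10 reads (y axis, with reads in siNC and in siLINP1), coloured by cluster, with dotted lines at 1.5-fold. HOXC13-AS is the only one past the upper line, at 1.69, and HOXD-AS2, HAGLROS and HOXC-AS3 lie past the lower line.

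HOTAIR, the HOXC noncoding RNA known for its link to Polycomb, had 53 and 45 reads, at 1.09 and 1.13 RPKM, with a value of -0.03 (-0.63 to 0.57). HOTAIRM1, of the HOXA cluster, had 103 and 92 reads, with a value of 0.05 (-0.38 to 0.47). HOXA10-AS was among the highest, at 6.36 and 6.72 RPKM, with a value of -0.00 (-0.37 to 0.36). These 3 stood near no difference. HOTTIP, at the tail end of HOXA, had 3 and 0 reads, and 4 of the microRNA rows, MIR196A1, MIR196A2, MIR196B and MIR615, had 0 reads in both. The strand setting of the counting is not given in the sources used here. Reads of an antisense RNA and of its partner therefore cannot be told apart where they overlap. Of the members, 15 overlap a row on the opposite strand, among them HOXB2, HOXC10 and HOXC13. A row on the same strand is overlapped by 11, and 19 overlap none.

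The cofactors that bind DNA together with HOX proteins were at 1 RPKM or more in both libraries, except PKNOX2 at 0.925 and 0.645 RPKM. Of 9 PBX, MEIS and PKNOX genes, all with at least 100 reads, 0 were higher and 2 were lower past 1.5-fold. Their median was -0.03. The shares of all genes were 14.4% and 13%, or 8.72% and 6.77% among genes with at least 100 reads. PBX2 was the highest, at 22.9 and 26.8 RPKM, followed by MEIS2 at 5.33 and 7.29 RPKM with a log2 fold change of 0.37 (0.18 to 0.56). The lower ones were PBX4, with 79 and 30 reads at -1.19 (-1.85 to -0.56), and PKNOX2, with 65 and 37 reads at -0.60 (-1.23 to 0.00). PKNOX2 lay within 1.5-fold under every other scaling.

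Among chromatin regulators of the HOX clusters, KDM6B, KDM6A and KMT2C were higher and MEN1 was lower in siLINP1. Of 28 Polycomb and Trithorax genes, all with at least 100 reads, 3 were higher and 1 was lower past 1.5-fold. Their median was 0.02. The shares of all genes were 14.4% and 13%, or 8.72% and 6.77% among genes with at least 100 reads. The whole interval was beyond 1.5-fold for the 3 higher genes and the 1 lower, beside 3.98% and 2.06% of all genes. Under each of the 3 other scalings, 4 were higher. KDM6B, which removes the Polycomb mark H3K27me3, had 2687 and 5097 reads, at 21.3 and 49.4 RPKM, with a log2 fold change of 1.13 (1.07 to 1.20). KDM6A, of the same enzyme family, had 534 and 814 reads at 0.82 (0.66 to 0.98). KMT2C, an H3K4 methyltransferase, had 1941 and 2913 reads at 0.80 (0.71 to 0.88). MEN1, which encodes menin, a partner of KMT2A at HOX genes, had 1646 and 736 reads at -0.95 (-1.08 to -0.83). Both demethylases were thus on the higher side. The Polycomb core stood closer to no difference, with EZH2 at 0.29 (0.14 to 0.43), EED at 0.08 (-0.09 to 0.25) and SUZ12 at -0.16 (-0.29 to -0.04). The highest levels of the list were those of PHC2, at 112.6 and 128.2 RPKM, followed by CBX6 in siNC at 33.2 RPKM and KDM6B in siLINP1.

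**Figure D5:**
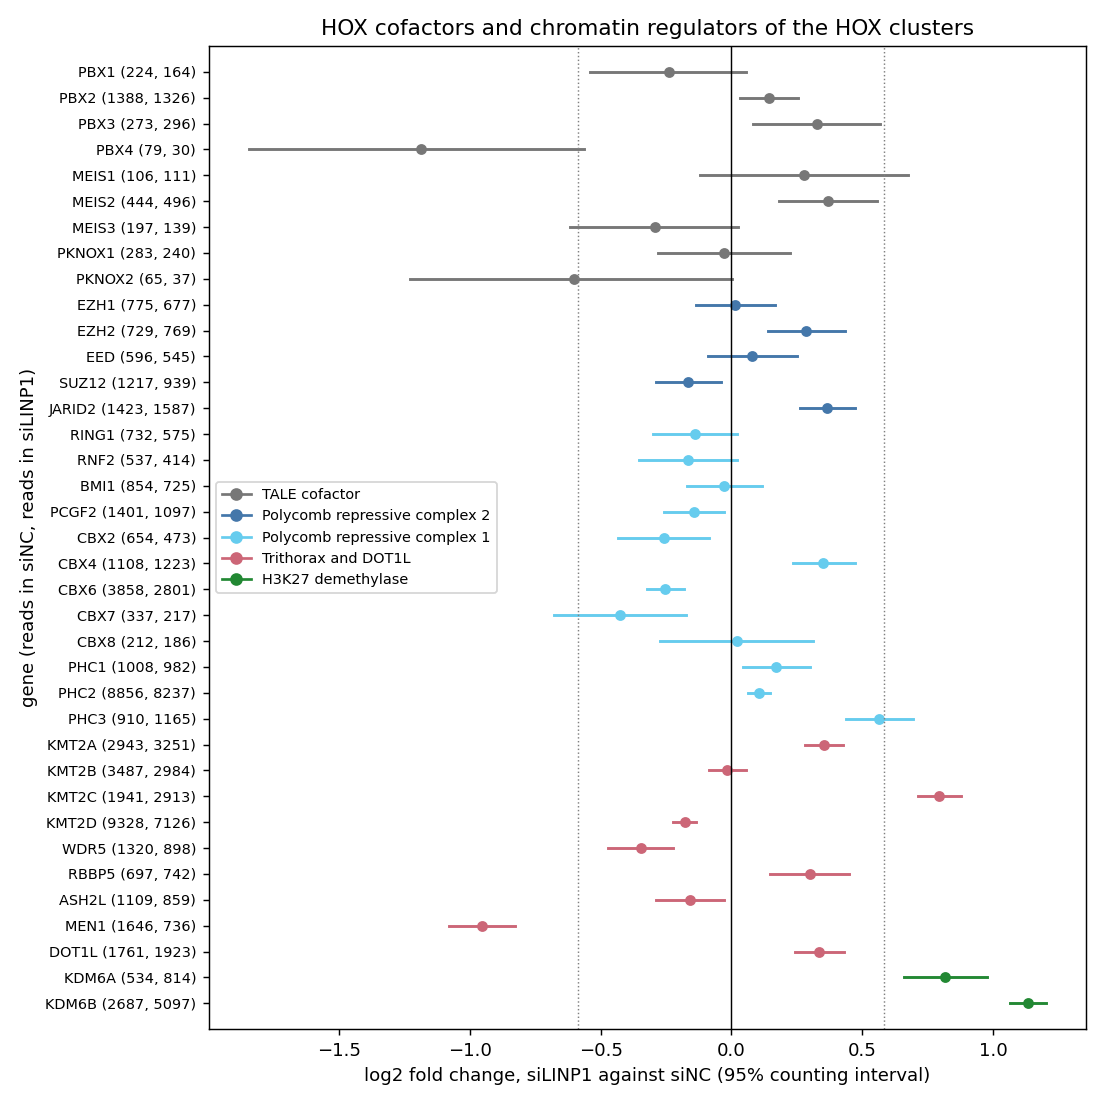
Log2 fold change of siLINP1 against siNC (x axis) with its 95% counting interval for 9 HOX cofactors and 28 Polycomb and Trithorax regulators (y axis, with reads in siNC and in siLINP1), coloured by role, with dotted lines at 1.5-fold. KDM6B (1.13), KDM6A (0.82) and KMT2C (0.80) lie past the upper line, and MEN1 (-0.95) and PBX4 (-1.19) past the lower line, with PKNOX2 at -0.60 just beyond it.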

How the data were processed

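Total RNA of 2 HSC-1 cultures, 1 per condition, was sequenced. The authors aligned reads with Tophat2 to GRCh37/hg19 and counted them with HTSeq, while the labels list HISAT2, TopHat2, Bowtie2 and HISAT, and versions and strand setting are not given in the sources used here. The deposited values are raw read counts per gene and RPKM, which the authors computed as the count over gene length and library total. 12 other columns of per-sample values were not used.

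Folds rest on counts divided by median-of-ratios size factors (1.08 and 0.930) and were taken without pseudocount on genes with at least 10 summed reads. Intervals of folds are 95% Clopper-Pearson intervals of the share of reads in siLINP1, and those of RPKM are exact Poisson intervals. A count of 0 was read as up to 3 reads. The calculation was tested on simulated data drawn with counting error only, so that test says nothing of the spread between cultures. The members and lists were chosen with earlier results of these data known. Named were all members at 1 RPKM or past a fold threshold, and from each list those past 1.5-fold with at least 100 reads and the highest by RPKM. HOXA9, HOXD1, HAGLROS, HOXC-AS3 and the other genes outside that rule were named after their values were seen. Alternatives were other scalings, pseudocounts of 1 and 5, other minimums of reads and of level, and, chosen after seeing the data, members without overlap and sums without their leading gene under each scaling. Promoters came from RefSeq. The values of 1 member are not reported here, though counts and sums over the members include it. Software was R 4.3.3 with edgeR 4.0.16 for TMM factors, and Python 3.11.15 with scipy 1.17.1, numpy 2.4.6, pandas 2.3.3 and matplotlib 3.10.9.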

Additional observations from a re-analysis of the deposited data

How the results depend on the processing

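No paired analysis was possible because each condition had 1 library, and no library could be left out. Under total count scaling, which moved every log2 value by 0.08, the summed log2 fold changes became 0.16 for all members, 0.19 for HOXB, 0.10 for HOXC (0.03 to 0.17, in place of an interval that includes 0), 0.041 for groups 4 to 8 and 0.18 for groups 9 to 13. With a pseudocount of 5, 2 members were past 1.5-fold higher, in place of 4, as HOXA9 came to 0.55 and HOXD1 to 0.45. At 100 reads or more, where fewer genes are tested, 2 were higher and 0 lower past 1.5-fold, and 0 lower past 2-fold. Among the 19 members overlapping no other row, a choice made after seeing the data, 14 passed 1 RPKM, in place of 30 of 39. Of those with at least 10 reads, 2 were higher and 0 lower past 1.5-fold, and 0 lower past 2-fold, again because fewer genes enter. Lower past 1.5-fold was 1 cofactor in place of 2 under total count, TMM and protein-coding scaling and under a pseudocount of 5. Of the noncoding RNAs, 6 were lower at 1 read or more and 1 at 100 reads or more, in place of 3. Those added at 1 read were HOTTIP with 3 and 0 reads, MIR10A with 1 and 0 and MIR10B with 4 and 0. Of the retinoic acid and CDX genes, 6 were higher at 1 read or more in place of 0, and 1 lower at 100 reads or more in place of 2. Those 6 were RXRG with 2 and 3 reads, ALDH1A1 with 1 and 3, CYP26A1 with 1 and 2, CRABP1 with 0 and 3, and ALDH1A2 and CDX1 with 0 and 1 each. The intervals of all these added genes include no difference. Of the neighbours, 1 was higher under total count scaling in place of 0. Lower neighbours numbered 0 with a pseudocount of 5, 2 at 1 read or more and 0 at 100 reads or more, in place of 1. Where a pseudocount or scaling moved a count, the cause was not tested. Shares of all genes past 1.5-fold were computed only with the median-of-ratios factors and no pseudocount, at 10 or 100 reads or more. Of the other results, 136 summary values stayed within 1.5 times the count or within the reported interval, and all 180 values of single members within theirs. Some calls still changed, as the HOXA sum turned its sign under each other scaling, HOXB6 came to include 0 under each, and HOXA10 came to exclude 0 under total counts. The level count was 26 members at 2 RPKM and 30 at 0.5 RPKM or at 1 CPM. Depth limits the 10 members with fewer than 100 summed reads but at least 10, whose intervals are wide.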

Other observations

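Retinoic acid and CDX genes, known regulators of the HOX clusters, were read in part. Of 19 genes, 10 had at least 10 reads, of which 0 were higher and 2 were lower past 1.5-fold in siLINP1, beside 14.4% and 13% of all genes tested, and the median log2 fold change was -0.07. ALDH1A3, which makes retinoic acid, was the highest of the list at 145.3 RPKM in siNC and 130.9 RPKM in siLINP1, with 9874 and 7268 reads and a value of -0.23 (-0.28 to -0.19). The receptor RARG followed, at 24.0 and 26.4 RPKM with a value of 0.06 (-0.05 to 0.16). The lower genes were CYP26B1, which degrades retinoic acid, with 132 and 68 reads at -0.75 (-1.19 to -0.31), and CRABP2, which carries it in the cell, with 48 and 20 reads at -1.05 (-1.88 to -0.27). CDX2 and CDX4 had 0 reads in both libraries, and CDX1 had 0 and 1.

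The nearest protein-coding genes on either side of the clusters ranged from 0 reads to about the level of the higher HOX genes, at up to 21.2 RPKM. Their distance from the cluster ran from 8841 bases for EVX2 to 228249 bases for SKAP2. EVX1, beside HOXA13, had 0 reads in both libraries, and EVX2, beside HOXD13, had 1 and 0. SKAP2, on the other side of HOXA, had 573 and 710 reads, with a log2 fold change of 0.52 (0.36 to 0.68). MTX2, beside HOXD1, had 483 and 411 reads at -0.02 (-0.22 to 0.17). SKAP1, beside HOXB1, had 4 and 3 reads, and TTLL6, beyond HOXB13, had 30 and 16 at -0.70 (-1.67 to 0.22). CALCOCO1, beside HOXC13, had 1014 and 740 reads at -0.25 (-0.38 to -0.11), and SMUG1, beyond HOXC4, had 998 and 983 at 0.19 (0.06 to 0.32). Of the 5 neighbours with at least 10 reads, 0 were higher and 1 was lower past 1.5-fold, beside the same shares of all genes.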
